A study of Mus with 4 samples.

Results

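The 5 genes described here encode the intermediate filament proteins of sensory axons: the light, medium and heavy neurofilament subunits (Nefl, Nefm and Nefh), α-internexin (Ina) and peripherin (Prph). They were chosen by symbol, and all 5 were found once each among the 31253 genes counted in every library. The libraries were 10x Genomics 3′ single-cell libraries of dissociated left lumbar 4 and 5 dorsal root ganglia (DRG) of male wildtype C57BL/6J mice about 8 weeks old. The CCI group had 2 libraries, made 3 days after chronic constriction injury, in which loose chromic gut ligatures are tied round the left sciatic nerve, and the CON group had 2 libraries from naive mice with no sham surgery. Neither group carried an engineered allele, and the injury was the only treatment. The number of mice behind a library is not stated in the labels, so p-values between CCI and CON measure the spread between libraries. Where classes of neurons from the same libraries were compared, the library was a block. Those p-values measure how evenly the classes differed across the libraries, and not the spread between libraries or mice. Where 2 values are given for a group, the first is of library 1 and the second of library 2. Levels and ratios are given by marker-defined neuron subtype, in CCI and CON, and in the CCI neurons that express the injury gene Sprr1a strongly.

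Neurofilaments are heteropolymers built on Nefl, into which Nefm and Nefh are incorporated, and the long phosphorylated tails of Nefm and Nefh space the filaments and set the calibre of large myelinated axons. α-Internexin is a further neurofilament subunit, best known from central and developing neurons. Peripherin is a type III intermediate filament protein of peripheral neurons that is abundant in small, mostly unmyelinated sensory neurons and can assemble with Nefl. In the DRG, staining for Nefh marks large myelinated neurons and staining for peripherin marks small ones, and the balance between the families is known to be altered after axotomy.

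On mouse build GRCm38 the RefSeq annotation places Nefl (ENSMUSG00000022055) at chr14:68083863-68089095 and Nefm (ENSMUSG00000022054) at chr14:68119545-68125004, next to it on the same chromosome, Nefh (ENSMUSG00000020396) at chr11:4938754-4948064, Ina (ENSMUSG00000034336) at chr19:47014681-47025327 and Prph (ENSMUSG00000023484) at chr15:99053579-99058978. Nefl and Prph overlap no other annotated gene, whereas the span of Nefm overlaps A230070E04Rik, that of Nefh overlaps Ap1b1 and Gm35321 and that of Ina overlaps Nt5c2. How reads from these shared stretches were counted was not examined. The values below are unique molecular identifiers (UMIs), each of which stands for 1 captured transcript end, so levels of different genes were compared without dividing by length. A level in CPM is the gene's share of all UMIs summed over the cells of a class in 1 library, per 1000000 UMIs.

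The files held 3376 to 11628 barcodes and 52074235 to 135009606 UMIs per library, and 35113 of 37451 barcodes passed the filter on genes and mitochondrial UMIs, a larger number of cells than the study stated. The labels give the cell type as neuron, but barcodes with neuron markers and at least 10000 UMIs numbered only 1473 and 855 in CCI 1 and CCI 2, against 995 and 240 in CON 1 and CON 2. CON 2 stood apart from the other libraries. It had the fewest barcodes, its neurons carried 119338 UMIs each against 43902 in CON 1 and 59652 and 68937 in the CCI libraries, and its satellite glia held the fewest UMIs of the 5 genes. Between 12 and 31 barcodes were shared by any 2 libraries. No doublet caller was run, and neuron clusters that also carried satellite glia markers were left unnamed. Their cells stayed in the sums of all neurons and of those split by Sprr1a level.

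Droplet libraries hold free RNA that gives UMIs of a gene in cells that do not express it, and satellite glia, the cells that wrap neuron bodies, were taken as a measure of it. Their Nefl level was 1483 and 752 CPM in CCI, against 2103 and 143 CPM in CON. Their Nefh level was 339.6 and 207 CPM in CCI, against 583 and 39.8 CPM in CON, and their Prph level was 654 and 241 CPM in CCI, against 645 and 57.6 CPM in CON. The mean UMIs per satellite glia barcode equalled 6.11 and 3.64% of the neurons' Nefl UMIs in the CCI libraries, against 7.09 and 0.537% in the CON libraries. For Nefl the UMIs of a neuron, taken over all neurons, thus far exceeded those of a satellite glia barcode. For Nefh this background was 9.26 and 5.87% in CCI and 14.8 and 1.21% in CON, and for Prph it was at most 1.43%. It weighed most in subtypes with little Nefh. In the cLTMR-like neurons it equalled 34.6 and 23.3% of the Nefh UMIs in CCI and 41.2 and 4.05% in CON. In NP3-like neurons its subtraction took mean Nefh from 101 to 74.4 CPM in CCI and from 72.8 to 44.8 CPM in CON. Their mean Nefl went from 685 to 577 CPM in CCI and from 432 to 331 CPM in CON. Barcodes with neuron markers but under 10000 UMIs outnumbered the neurons kept in every library, with 2754 and 2038 in CCI, against 3041 and 390 in CON. They had Nefl levels of 5782 and 6744 CPM in CCI, against 6993 and 8394 CPM in CON, above those of the neurons kept, and were left out of the neurons, so the levels that follow describe the deeper barcodes only.

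Neurons were clustered without the 5 genes and without 41 injury genes, so that none of these could place a cell. Other genes that differed between CCI and CON were not left out, so the clusters were not independent of injury. Clusters were named from their markers. Of 3563 neurons, 2776 lay in clusters of 8 named subtypes and 415, all but 2 from CCI, in clusters led by injury genes. The large-fibre-like cluster was led by Calb2, Pvalb and Slc17a7, genes of proprioceptors and touch receptors. The PEP1-like class pooled several clusters, among them clusters of 168 and 143 neurons with Sstr2 among their leading genes. Sstr2-expressing neurons were not named as a class of their own. Large-fibre-like neurons had the highest levels of all 3 neurofilament subunits. Nefl, the subunit every neurofilament needs, was at 6044 and 5139.6 CPM in CCI, against 6101 and 10833 CPM in CON in these cells. Nefm reached 3051 and 2324 CPM in CCI, against 4025 and 4700.5 CPM in CON. Nefh, whose protein is the classical stain for large DRG neurons, was at 2148 and 2078 CPM in CCI, against 2743 and 3074 CPM in CON. Nefl varied most between the CON libraries, where the CON 2 value rests on 27 cells.

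PEP2-like neurons, a peptidergic class with lightly myelinated fibres, came second on average for each of these subunits. Their Nefh level was 1321 and 1217 CPM in CCI, against 1393 and 1636 CPM in CON, although the CON 2 value rests on 5 cells. Every library placed large-fibre-like above PEP2-like neurons and PEP2-like above the remaining 6 subtypes for Nefh. Trpm8-like neurons, which sense cooling, ranked next for Nefm and Nefh. Their Nefh level was 368 and 245 CPM in CCI, against 554 and 320.4 CPM in CON, and its ranges did not overlap those of the next subtype in the order of means, PEP1-like neurons. Below them all 4 remaining pairs of neighbours overlapped for Nefh in CON, whereas in CCI PEP1-like neurons lay above NP1-like and NP1-like above NP3-like neurons without overlap. Nefm, the middle subunit, had the same first 3 subtypes by mean, but PEP2-like and Trpm8-like neurons overlapped in CON. It was at 1623 and 1166 CPM in CCI, against 1489.6 and 1417 CPM in CON in PEP2-like neurons, at 1072 and 696 CPM in CCI, against 1575 and 1003 CPM in CON in Trpm8-like neurons, and at no more than 793 CPM in any library of the other 5 subtypes.

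Nefl was above Nefm and Nefh in every subtype. It averaged 2961 ± 335 CPM in CCI and 3299.7 ± 495 CPM in CON (SD, n = 2 libraries each) in NP1-like neurons, the Mrgprd-expressing non-peptidergic nociceptors, and 3021 ± 126 and 2733 ± 359 CPM in NP2-like neurons, the Mrgpra3-expressing itch class. It was 2287 ± 91.7 and 2510.3 ± 269 CPM in Trpm8-like neurons, 1684 ± 101 and 1731 ± 138 CPM in cLTMR-like neurons, the C-fibre touch receptors, and 1402 ± 70.9 and 1366 ± 222 CPM in PEP1-like peptidergic nociceptors. NP3-like neurons, the Sst- and Nppb-expressing itch class, had the lowest level, 685 ± 63.2 and 432 ± 129.6 CPM, without overlap with any other subtype. In CCI only NP2-like and NP1-like neurons overlapped as neighbours in this order, whereas in CON the 4 classes PEP2-like, NP1-like, NP2-like and Trpm8-like overlapped one after the other.

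Prph ran the other way. Large-fibre-like neurons had the lowest mean level, 2371 and 2153 CPM in CCI, against 2051 and 1791 CPM in CON, and overlapped the PEP2-like neurons, at 2408 and 2350.5 CPM in CCI, against 2502 and 1754 CPM in CON. NP3-like neurons followed with 3619 and 3466 CPM in CCI, against 3537 and 3434 CPM in CON, above both in every library. The other 5 subtypes lay between 4433 and 5920.4 CPM in CCI and between 3799.5 and 4732 CPM in CON, with NP1-like neurons highest on average, and in CON each of them overlapped its neighbour. The whole range of Prph over the 8 subtypes was narrow beside that of Nefh.

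Ina was the scarcest member, and it did not follow the triplet. It averaged 95.1 ± 12.6 CPM in CCI and 118 ± 33.6 CPM in CON in NP1-like neurons, 89.7 ± 8.64 and 94.6 ± 20.3 CPM in cLTMR-like neurons and 60.9 ± 30.4 and 86.99 ± 29.8 CPM in large-fibre-like neurons, and the ranges of these classes overlapped in CON. PEP2-like neurons, rich in Nefh, had 10.5 and 1.16 CPM in CCI, against 7.44 and 1.61 CPM in CON. NP3-like neurons had 5.51 and 11.2 CPM in CCI, against 8.25 and 0.687 CPM in CON. On plain CPM these levels were near those of satellite glia, at 12.4 and 4.38 CPM in CCI, against 14.03 and 1.03 CPM in CON. Subtraction of the mean UMIs per satellite glia barcode nevertheless left most of them. The PEP2-like mean went from 5.83 to 5.09 CPM in CCI and from 4.52 to 3.78 CPM in CON. That of NP3-like neurons went from 8.34 to 7.53 CPM in CCI and from 4.47 to 3.79 CPM in CON. In these 2 subtypes Ina lay below every library of the other 6, with no more than 11.2 CPM. Once the satellite glia background was subtracted, none of the 5 genes changed its top subtype.

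**Figure D1:**
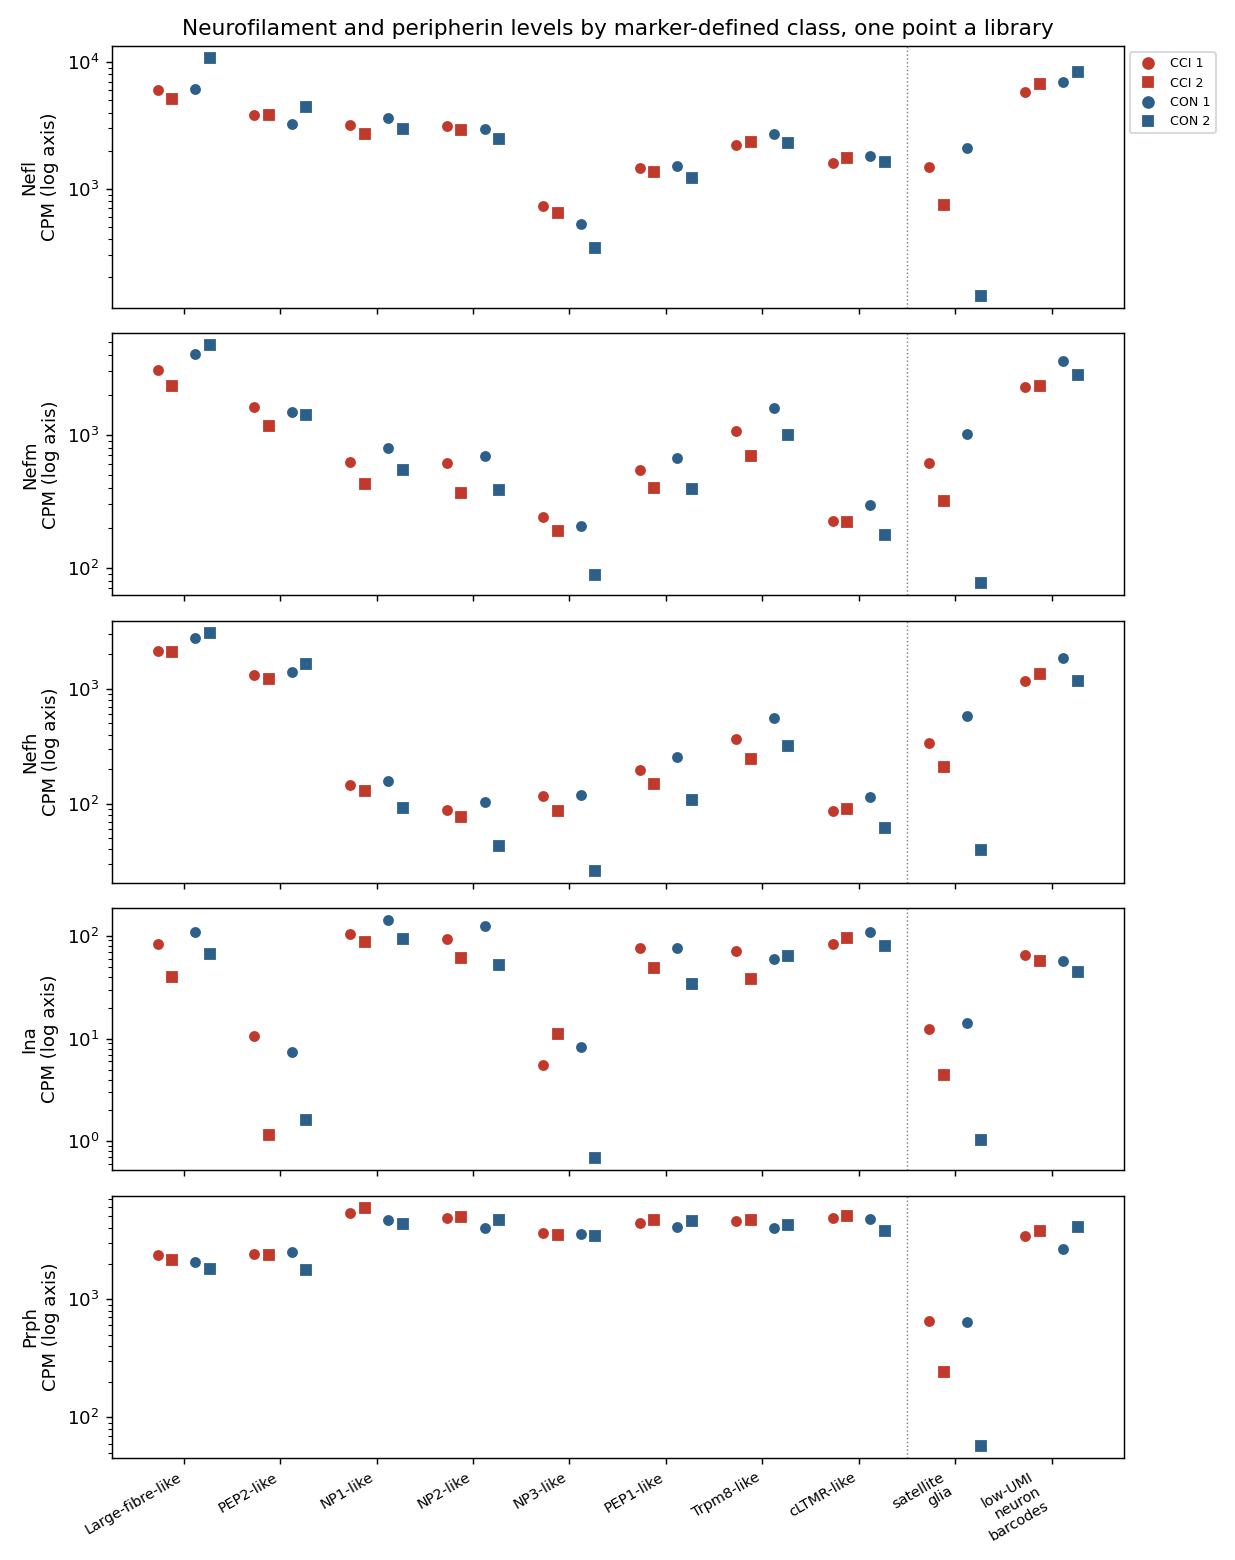
Level of each gene (CPM, log axis) in the 8 marker-defined neuron subtypes and, right of the dotted line, in satellite glia and low-UMI neuron barcodes. Each point is 1 library, with CCI in red left of CON in blue. Nefl, Nefm and Nefh peak in large-fibre-like and PEP2-like neurons, Prph is lowest there, Ina drops in PEP2-like and NP3-like neurons, and the CON 2 library (blue square) has the least of each gene in satellite glia.

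Over the 28 subtype-by-library sums of at least 20 cells, the log2 levels of Nefm and Nefh went together (Pearson's r = 0.92), as did those of Nefl and Nefm (r = 0.84), whereas Nefh and Prph ran in opposite directions (r = -0.86) and Ina and Nefh were little related (r = -0.23). These sums share libraries and depth, so the coefficients are descriptions without a test. Among 6277 genes with at least 20 CPM on average, the 5 most like Nefh were Vsnl1 (r = 0.99), Lgi3 (r = 0.98), Adam23 (r = 0.95), Cd164 (r = 0.95), S100b (r = 0.94). For Nefm they were Tacc2 (r = 0.92), Vsnl1 (r = 0.90), Myh10 (r = 0.90), Lgi3 (r = 0.89), Strbp (r = 0.88), so that Vsnl1, which encodes the calcium sensor visinin-like 1, and Lgi3 stood on both lists. For Nefl they were Drosha (r = 0.90), Acp1 (r = 0.85), Endod1 (r = 0.84), Bend6 (r = 0.84), Ndufaf2 (r = 0.82). The genes most like Ina were Ncald (r = 0.85), Fam189a2 (r = 0.84), Klhdc8b (r = 0.82), Plcxd3 (r = 0.79), Fam92a (r = 0.78), and those most like Prph were Tceal9 (r = 0.89), Tmed3 (r = 0.89), Bex2 (r = 0.88), Bag2 (r = 0.88), Erp29 (r = 0.88).

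Ratios between the genes separated the subtypes further. Large-fibre-like neurons held 2.55 and 2.39 Nefl UMIs per Prph UMI in the CCI libraries, against 2.97 and 6.05 in the CON libraries, and PEP2-like neurons 1.605 and 1.63 in CCI against 1.29 and 2.52 in CON. The 6 other subtypes all stayed below 1, and the lowest ratio was in NP3-like neurons with 0.202 and 0.185 in CCI against 0.148 and 0.0991 in CON. Nefh per Nefl was 0.342 and 0.318 in CCI and 0.432 and 0.3700 in CON in PEP2-like neurons, and 0.355 and 0.404 in CCI and 0.4496 and 0.284 in CON in large-fibre-like neurons, so the share of the heavy subunit did not separate these classes. In NP2-like neurons Nefh per Nefl was only 0.0283 and 0.0264 in CCI and 0.0348 and 0.0172 in CON. On average Nefm per Nefl was lowest in cLTMR-like neurons, at 0.1401 and 0.125 in CCI and 0.162 and 0.108 in CON. NP2-like neurons came as low in the CCI library where their Nefm level was 367 CPM.

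Single neurons were split in a like manner. After each neuron was thinned to 10000 UMIs, the 3 subunits together outnumbered Prph in 97.9% (95% exact binomial interval 92.6 to 99.7%) and 99.1% (95% exact binomial interval 94.9 to 99.98%) of large-fibre-like neurons in CCI, against 100% of 42 and 100% of 27 cells in CON. In PEP2-like neurons this share was 93.3% and 92.5% in CCI, against 90% and 100% in CON. In cLTMR-like neurons it was 2.82% and 5.797% in CCI, against 4.08% and 11.1% in CON. NP1-like neurons were mixed, with 32.9% (95% exact binomial interval 26.8 to 39.4%) and 8.33% (95% exact binomial interval 3.67 to 15.8%) in CCI, against 50.6% (95% exact binomial interval 44.4 to 56.8%) and 20% (95% exact binomial interval 11.1 to 31.8%) in CON, so libraries of 1 group differed more than the groups did. Nefh alone outnumbered Prph only in large-fibre-like and PEP2-like neurons among the 8 subtypes. Intervals cover counting error only, and free RNA, in which Nefl outweighs Prph (2.27 and 3.13 Nefl UMIs per Prph UMI in satellite glia of CCI, 3.26 and 2.49 in CON), was not removed from these shares. Without thinning, the share in large-fibre-like neurons was 100% and 97.2% in CCI.

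**Figure D2:**
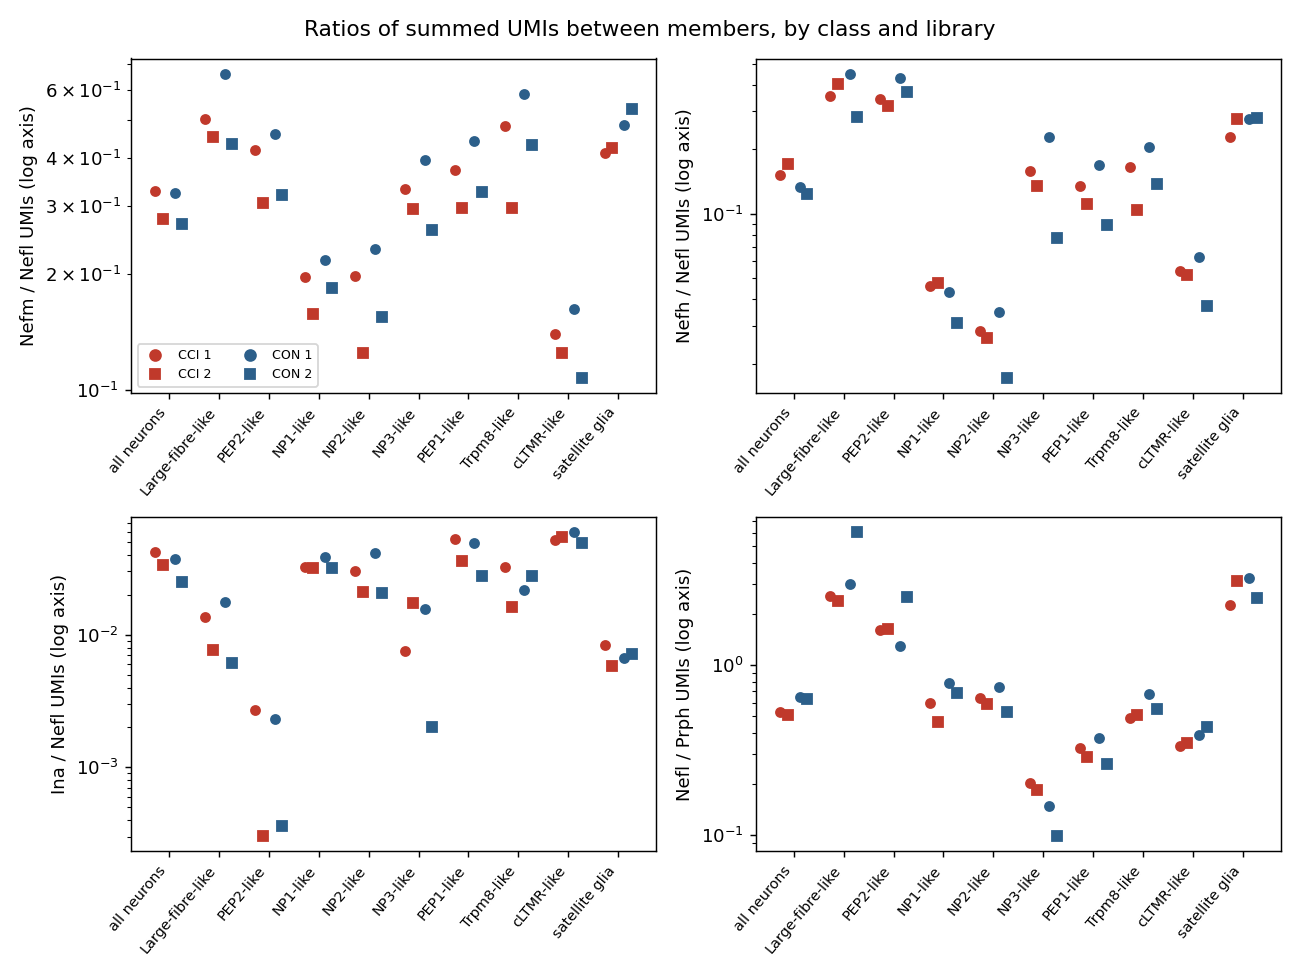
Ratios of summed UMIs between the genes (log axes) in all neurons, in the 8 subtypes and in satellite glia. Each point is 1 library, CCI in red left of CON in blue. Nefl per Prph is above 1 in the large-fibre-like and PEP2-like neurons and in the free RNA of satellite glia, and below 1 in the other 6 subtypes.

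CCI against CON over all neurons asks whether these genes differ in the neurons kept, pooled over subtypes. It leaves out the low-UMI neuron barcodes and the other cells of the ganglion. None of the 5 genes passed the test, and their means differed by small amounts. In these sums fewer neurons of a subtype and less RNA per neuron cannot be told apart. Nefl was at 2249 and 2140.0 CPM in CCI, against 2690.1 and 2519 CPM in CON, so both CCI libraries lay below both CON libraries. The gap did not exceed the error of the fit (log2 fold change -0.17 ± 0.18 SE, adjusted p = 0.665, edgeR quasi-likelihood test). Nefm was at 736 and 596 CPM in CCI, against 873 and 680.0 CPM in CON, with overlap (log2 fold change -0.15 ± 0.19 SE, adjusted p = 0.738). Nefh was at 340.3 and 366 CPM in CCI, against 357 and 311 CPM in CON, also with overlap (log2 fold change 0.16 ± 0.18 SE, adjusted p = 0.6898). Ina was at 94.3 and 71.4 CPM in CCI, against 99.6 and 62.4 CPM in CON (log2 fold change 0.11 ± 0.23 SE, adjusted p = 0.861), and its groups overlapped. Prph was at 4237 and 4198 CPM in CCI, against 4128 and 3982 CPM in CON, slightly higher in both CCI libraries (log2 fold change 0.13 ± 0.18 SE, adjusted p = 0.751). The edgeR count of called members was therefore 0 of 5, where 898 of 15486 genes (5.8%) were called, and none had an unadjusted p under 0.05 in edgeR or was called by DESeq2. On data simulated for this comparison with the same spread for every gene, 59% of 2-fold and 100% of 4-fold changes were called. Changes of 2-fold or less could therefore be missed with 2 libraries a group.

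Ratios over all neurons moved a little more than levels. Nefl per Prph was 0.531 and 0.5098 in the CCI libraries, against 0.652 and 0.632 in the CON libraries, a log2 difference of -0.30. Nefh per Nefl was 0.151 and 0.171 in CCI, against 0.133 and 0.123 in CON, a log2 difference of 0.33. The groups did not overlap for either ratio, but an exact two-sided permutation test of 2 against 2 libraries cannot go below p = 0.3333, which both reached, and after adjustment over the 20 ratios tested p was 1. Nefm per Nefl and Ina per Nefl overlapped between the groups. Within subtypes, Nefl per Prph was lower in both CCI libraries in large-fibre-like, NP1-like and cLTMR-like neurons and overlapped in PEP1-like neurons, again at p = 0.3333 at best in the exact permutation test.

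Outside the Sprr1a-high neurons, again none of the 5 genes passed the edgeR test between CCI and CON, where 242 of 15140 genes (1.6%) were called. The log2 fold changes were -0.13 for Nefl, -0.13 for Nefm, 0.23 for Nefh, -0.20 for Ina and 0.14 for Prph, with adjusted p from 0.768 to 0.901. None had an unadjusted p under 0.05, and DESeq2 called none. The 4 subtypes large-fibre-like, NP1-like, PEP1-like and cLTMR-like had at least 20 cells in every library, and none of the 5 genes was called in any of them by edgeR or DESeq2 or had an unadjusted p under 0.05. In large-fibre-like neurons, where 4.29% of genes were called, no member passed: the log2 fold changes were -0.50 ± 0.37 for Nefl, -0.60 ± 0.31 for Nefm, -0.36 ± 0.29 for Nefh, -0.42 ± 0.32 for Ina and 0.34 ± 0.29 for Prph (SE), with adjusted p of 0.355 or more. On plain CPM Nefl, Nefm and Nefh lay lower in both CCI libraries than in both CON libraries and Prph lay higher, without passing the test. In NP1-like neurons (0.406% of genes called), PEP1-like neurons (0.0548%) and cLTMR-like neurons (0.0179%) the fold changes of the 5 genes lay between -0.31 and 0.38.

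The difference between the CCI effect in large-fibre-like neurons and that in the other named subtypes passed the test for 1 gene of the 5. Nefh was at 2148 and 2078 CPM in CCI, against 2743 and 3074 CPM in CON in large-fibre-like neurons. In the other named subtypes together it was at 288 and 257 CPM in CCI, against 242 and 126 CPM in CON, and after subtraction of the satellite glia background at 255 and 237 CPM in CCI against 192 and 123 CPM in CON. Nefh thus lay lower in both CCI libraries in the first class and higher in both in the second (log2 difference of fold changes -0.999 ± 0.27, SE, edgeR adjusted p = 0.0468), where 2.05% of genes were called. The call rested on CON 2: without that library the difference was -0.43 with an adjusted p of 0.871, and in DESeq2 the adjusted p was 0.0754. The subtypes pooled in the second class also differ in their shares between libraries. PEP2-like neurons, rich in Nefh, numbered 90 and 53 in CCI, against 40 and 5 in CON. Mean Nefh was lower in CCI than in CON in PEP2-like (1269 against 1515 CPM), Trpm8-like (307 against 437 CPM) and PEP1-like neurons (172 against 182 CPM). It was higher in CCI in NP1-like (138 against 125 CPM), NP2-like, NP3-like and, slightly, cLTMR-like neurons. The part of free RNA and of these shares was not tested.

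**Figure D3:**
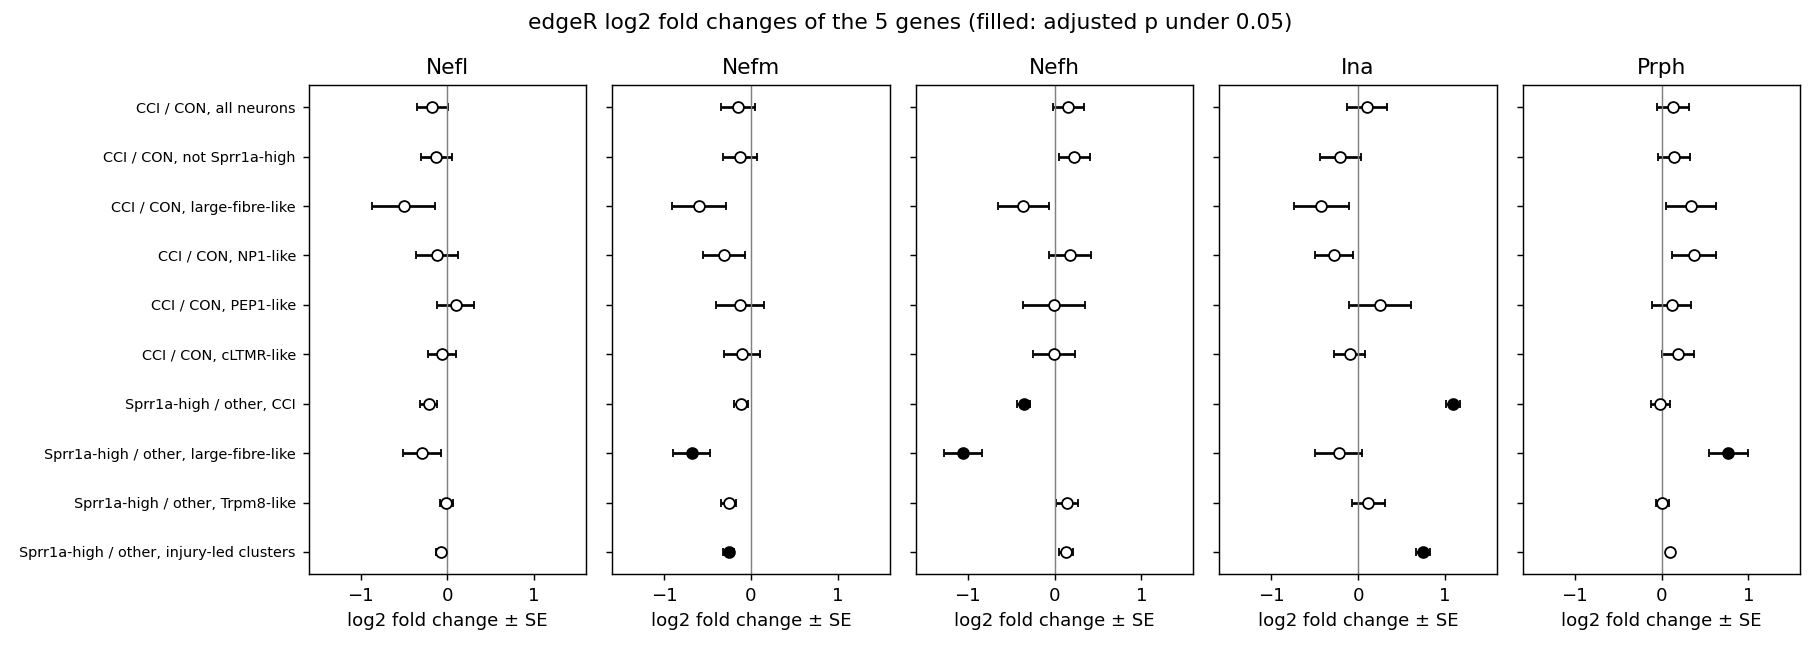
Log2 fold changes (points) with standard errors (bars) of the 5 genes in each comparison, from edgeR. Filled points have an adjusted p under 0.05. None of the 6 CCI against CON comparisons calls any of the 5 genes, whereas Ina is higher in Sprr1a-high neurons as a whole and in the injury-led clusters, where Nefm is lower, and Nefh is lower in Sprr1a-high neurons as a whole and in the large-fibre-like ones, where Nefm is lower and Prph higher too.

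Sprr1a encodes a small proline-rich protein that injured sensory neurons switch on during regrowth. A neuron was called Sprr1a-high at 5 or more Sprr1a UMIs and at least 1000 CPM, which 240 and 226 neurons met in CCI 1 and CCI 2 (16.3 and 26.4%), against 1 neuron in each CON library. Within CCI these neurons also had more of the injury transcription factor Atf3 (log2 fold change 1.64), the neuropeptide galanin (Gal, 3.22) and the growth-cone protein Gap43 (1.47) than the other CCI neurons, each called by edgeR. Of the Sprr1a-high neurons, 53.8 and 49.6% lay in clusters led by injury genes, whose subtype of origin is not known, 24.6 and 16.8% in unnamed clusters, 7.5 and 19.03% in the large-fibre-like cluster and 9.17 and 7.52% in the Trpm8-like cluster. Between the limits of 500 and 2000 CPM of Sprr1a lay 132 and 58 neurons.

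Ina was higher in Sprr1a-high than in other CCI neurons. It was at 152 and 104 CPM in Sprr1a-high neurons, against 79.4 and 58.2 CPM in the other CCI neurons, so that both Sprr1a-high values lay above both others (log2 fold change 1.10 ± 0.08 SE, adjusted p = 4.51e-12, edgeR with the library as a block). The CON neurons, at 99.6 and 62.4 CPM, lay below both Sprr1a-high values and overlapped the other CCI neurons. Ina stayed higher under every alternative run, but its adjusted p was 0.0608 with CCI 1 left out.

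Nefh was lower in Sprr1a-high neurons. It was at 237 and 283 CPM in Sprr1a-high neurons, against 367 and 399 CPM in the other CCI neurons, without overlap (log2 fold change -0.36 ± 0.08 SE, adjusted p = 0.000424). With the satellite glia background subtracted the levels were 212 and 264 CPM against 334 and 377 CPM. The call was lost with either CCI library left out (log2 fold changes -0.32 without CCI 1 and -0.38 without CCI 2), without the block (-0.35) and at a Sprr1a limit of 500 CPM, where the log2 fold change shrank to -0.11. Nefl was at 1744 and 1745 CPM in Sprr1a-high neurons, against 2379.6 and 2298 CPM in the other CCI neurons, a gap that fell just short of the threshold (log2 fold change -0.22 ± 0.09 SE, adjusted p = 0.0522) and passed it in DESeq2 (adjusted p = 0.0493). Nefm was at 587 and 526 CPM in Sprr1a-high neurons, against 775 and 624 CPM in the other CCI neurons (log2 fold change -0.12 ± 0.08 SE, adjusted p = 0.235). Prph was at 3914 and 3606 CPM in Sprr1a-high neurons, against 4321 and 4434 CPM in the other CCI neurons (log2 fold change -0.02 ± 0.11 SE, adjusted p = 0.918).

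So 2 of the 5 genes were called between the Sprr1a-high and the other neurons, 1 in each direction, where 7639 of 14677 genes (52%) were called, 25.4% higher and 26.7% lower. These calls depend on the scaling. The TMM factors centre the bulk of genes on no change, and without them, with the totals alone, the median of all genes moved to a log2 fold change of -0.21. On that scale Nefl (-0.42), Nefm (-0.32), Nefh (-0.56) and Prph (-0.22) were all called lower and Ina (0.89) stayed higher, and 2269 genes were called higher and 5716 lower, in place of 3725 and 3914. Ratios between the genes do not depend on it: Ina per Nefl was 0.08701 and 0.0598 in Sprr1a-high against 0.0334 and 0.0253 in other CCI neurons, Nefh per Nefl was 0.136 and 0.162 against 0.154 and 0.174, and Nefl per Prph was 0.446 and 0.484 against 0.551 and 0.518. Sprr1a-high neurons were deeper, with a median of 76580 and 77996 UMIs against 51017 and 67150, and the calls of Ina and Nefh stayed when every neuron was thinned to 5000 UMIs. The 6 satellite glia markers summed to 1399.8 and 1532 CPM in Sprr1a-high neurons against 1173 and 1323 CPM in the others, with none at 0, and their part in the result was not tested. In single neurons thinned to 10000 UMIs, Nefl, Nefm and Nefh together outnumbered Prph in 26.7% and 33.2% of the Sprr1a-high neurons, against 31.95% and 25.8% of the others. Since the subtypes differ in these genes, subtype makeup and injury state cannot be told apart in this comparison.

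Within large-fibre-like neurons, the class richest in neurofilaments, Nefh and Nefm were lower in the Sprr1a-high cells. These numbered 18 and 43, and since the first lay under the 20 cells set at first, a minimum of 15 cells was used, chosen after the counts were seen. Here and in the classes that follow, the other CCI neurons are those of the same class. Nefh was at 819 and 1219 CPM in Sprr1a-high neurons, against 2780.1 and 2706 CPM in the other CCI neurons, and at 2743 and 3074 CPM in CON. Both Sprr1a-high values lay far below all 4 other values (log2 fold change -1.05 ± 0.22 SE, adjusted p = 0.000209, edgeR), where 25.5% of genes were called. Nefm was at 1602 and 1514 CPM in Sprr1a-high neurons, against 3739.9 and 2915 CPM in the other CCI neurons (log2 fold change -0.68 ± 0.21 SE, adjusted p = 0.01397), and 4025 and 4700.5 CPM in CON. Nefl was at 4422 and 3652 CPM in Sprr1a-high neurons, against 6816 and 6226 CPM in the other CCI neurons, and this did not pass (log2 fold change -0.29 ± 0.22 SE, adjusted p = 0.344). The heavy and medium subunits were thus called lower in these neurons and the light one was not, except with the totals alone, where Nefl was called too (-0.70, with the median of all genes at -0.43).

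Prph was called higher in the Sprr1a-high large-fibre-like neurons (log2 fold change 0.77 ± 0.23 SE, adjusted p = 0.00876), yet on plain CPM only CCI 1 showed it: the levels were 3274 and 2134 CPM in Sprr1a-high neurons, against 1941 and 2167 CPM in the other CCI neurons. With the totals alone it was not called (adjusted p = 0.0625). Ina was at 78.7 and 21.3 CPM in Sprr1a-high neurons, against 84.2 and 52.7 CPM in the other CCI neurons, lower in both libraries on plain CPM and not called (log2 fold change -0.22 ± 0.27 SE, adjusted p = 0.589), unlike its rise among Sprr1a-high neurons as a whole, a difference that was not itself tested. Nefh per Nefl was 0.185 and 0.334 in Sprr1a-high against 0.408 and 0.435 in other large-fibre-like neurons of CCI and 0.4496 and 0.284 in CON. Nefl per Prph was 1.35 and 1.71 against 3.51 and 2.87, and 2.97 and 6.05 in CON. After thinning, Nefh outnumbered Prph in 22.2% (95% exact binomial interval 6.41 to 47.6%) and 20.9% (95% exact binomial interval 10.04 to 36.04%) of the Sprr1a-high cells, against 63.6% (95% exact binomial interval 51.9 to 74.3%) and 53.8% (95% exact binomial interval 41.03 to 66.3%) of the others and 66.7% and 77.8% in CON. Leaving out either CCI library ended all 3 calls, and 1 sum of each class then remains, with log2 fold changes without CCI 1 and without CCI 2 of -0.75 and -1.28 for Nefh, -0.55 and -0.74 for Nefm and 0.37 and 1.24 for Prph. In CCI 1 the Sprr1a-high cells of this class were also deeper, with a median of 95350.5 UMIs against 26573 in the others, whereas in CCI 2 the medians were 32522 and 34677 UMIs, and these calls were not recomputed at equal depth. At a Sprr1a limit of 500 CPM the log2 fold change of Nefh was -0.61 and still called, and that of Nefm was -0.32 and not called (adjusted p = 0.118, edgeR). The cluster was not divided into types of large-fibre neurons, and whether the Sprr1a-high cells are of the same types as the others was not tested.

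Large-fibre-like neurons of CCI that were not Sprr1a-high had none of the 5 genes called against CON by edgeR or DESeq2, and none with an unadjusted p under 0.05 (0.908% of genes called). Their log2 fold changes were -0.13 for Nefh, -0.44 for Nefm, -0.42 for Nefl, -0.39 for Ina and 0.06 for Prph, and the Nefh level of 2780.1 and 2706 CPM overlapped that of CON.

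Trpm8-like neurons, with 22 and 17 Sprr1a-high cells, showed no called difference in any of the 5 genes in edgeR or DESeq2 (17.2% of genes called), and 1 of the 5, Nefm, had an unadjusted p under 0.05. Nefh was at 330.0 and 262 CPM in Sprr1a-high neurons, against 379 and 226 CPM in the other CCI neurons (log2 fold change 0.14 ± 0.13 SE, adjusted p = 0.506), higher in one library and lower in the other. Nefm came nearest to the threshold, lower in both libraries (log2 fold change -0.26 ± 0.09 SE, adjusted p = 0.0718), and was called with the totals alone (log2 fold change -0.41). The injury-led clusters held 53.8 and 49.6% of all Sprr1a-high neurons, so the 2 comparisons share cells. Within these clusters, Sprr1a-high neurons had more Ina than their neighbours, 182 and 143 CPM in Sprr1a-high neurons, against 111 and 93.4 CPM in the other CCI neurons (log2 fold change 0.75 ± 0.08 SE, adjusted p = 3.38e-05), and slightly less Nefm (log2 fold change -0.26 ± 0.06 SE, adjusted p = 0.0157), where 9.18% of genes were called. Several unlike clusters were pooled, and their makeup was not held constant. DESeq2 called Ina there and not Nefm. Nefh, Nefl and Prph were not called there. The other neurons of these clusters had 162 and 149 CPM of Nefh, against 367 and 399 CPM in all CCI neurons that were not Sprr1a-high. With either CCI library left out, 1 sum of each class remained. The spread then came from CON sums of all neurons, not of this class, so the calls could not be checked that way. Log2 fold changes without CCI 1 and without CCI 2 were 0.70 and 0.80 for Ina and -0.19 and -0.31 for Nefm.

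**Figure D4:**
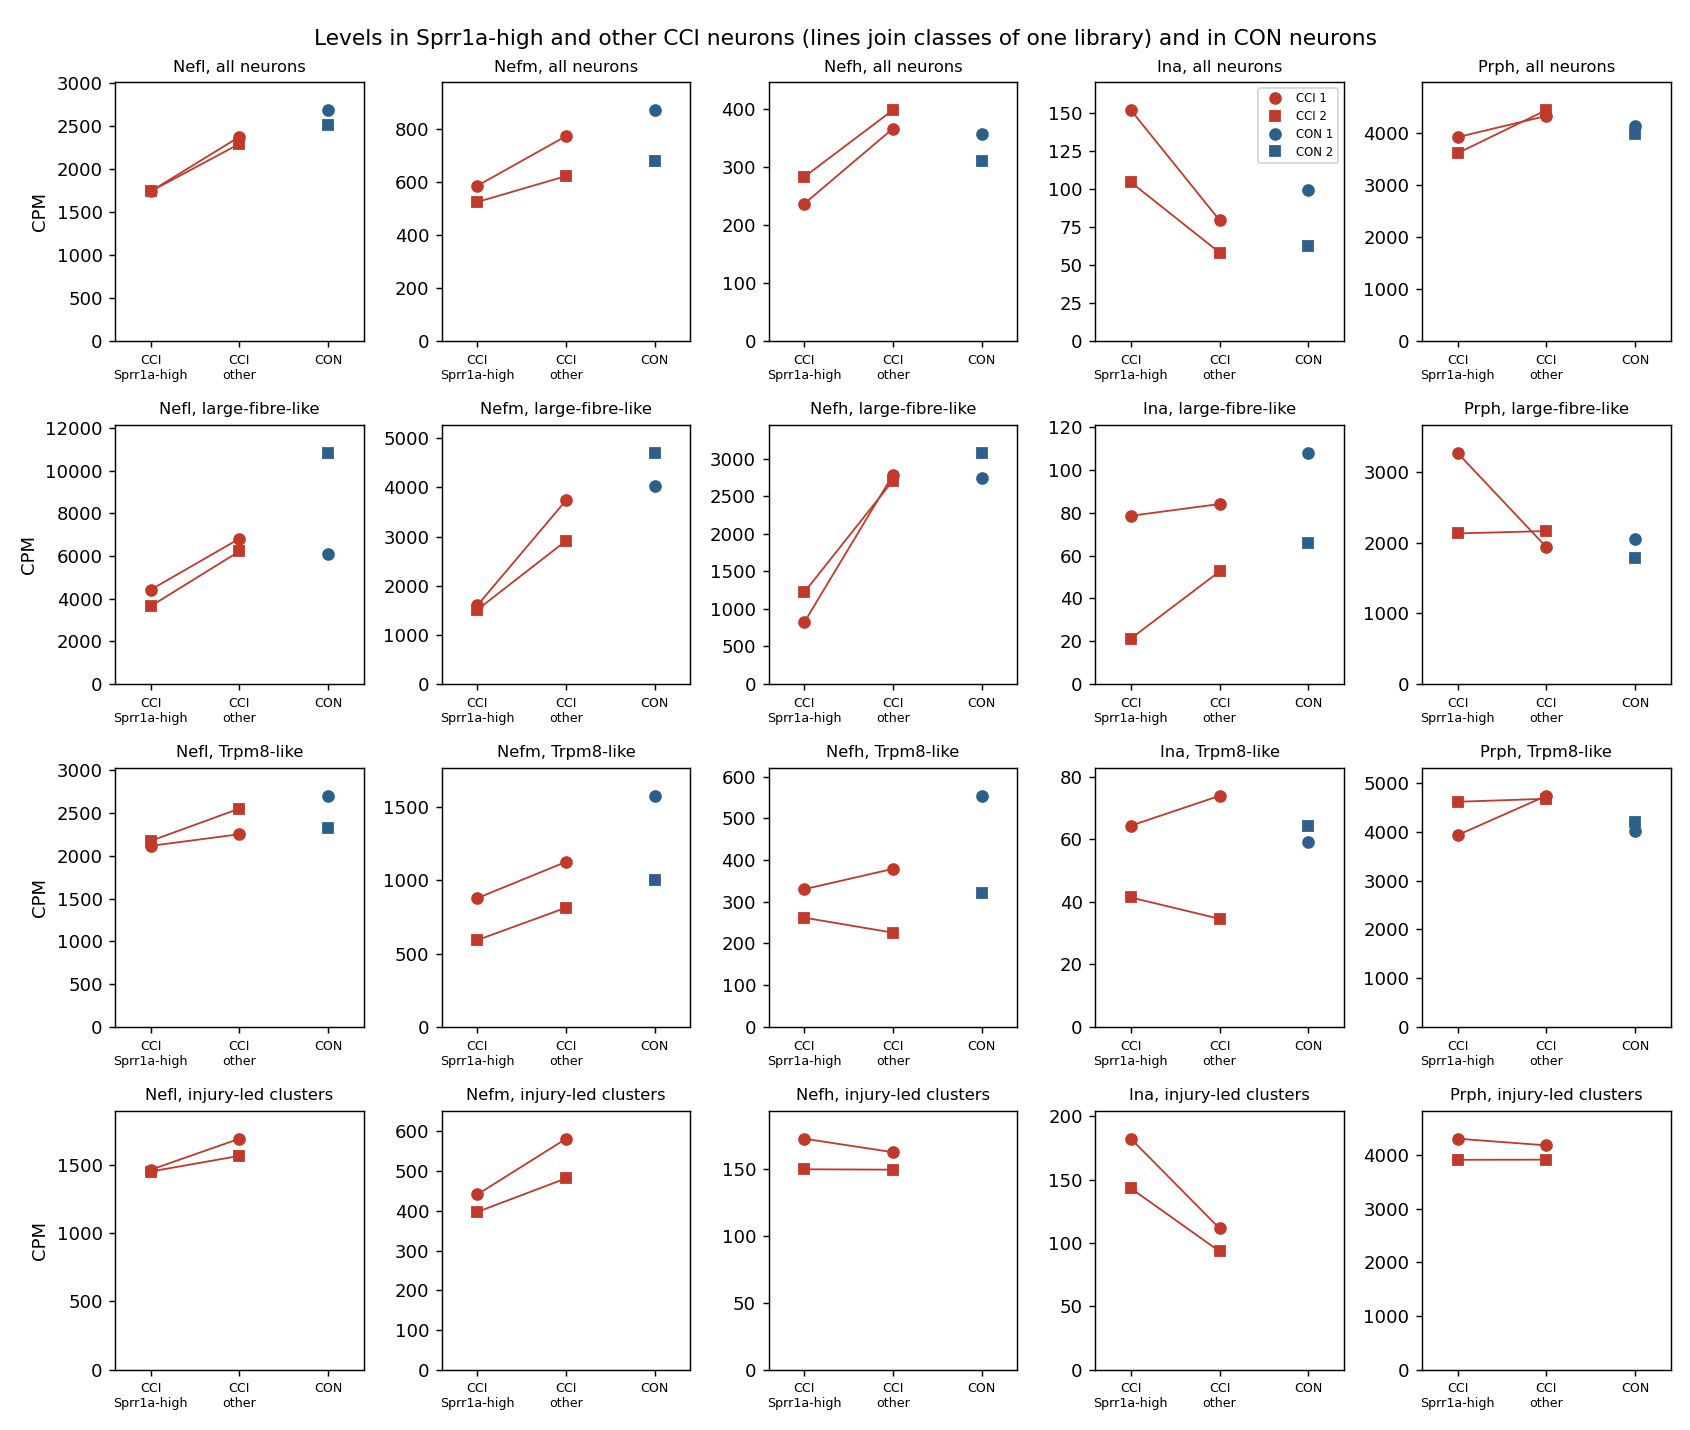
Level (CPM) of each gene in the Sprr1a-high and the other CCI neurons, with lines joining the 2 classes of 1 library, and in CON neurons, for all neurons, large-fibre-like neurons, Trpm8-like neurons and injury-led clusters (which hold almost no CON cells). In large-fibre-like neurons Nefh is at 819 and 1219 CPM in the Sprr1a-high cells, under every other value of its panel, and Ina is above the other CCI neurons in the panels of all neurons and of injury-led clusters.

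Divided by the Sprr1a level of the CCI neurons, Nefl, Nefm, Nefh and Prph did not change steadily, whereas mean Ina rose at each step. Nefh was at 348 and 377 CPM in neurons under 100 CPM of Sprr1a, at 488 and 578 CPM from 100 to 1000 CPM, at 255 and 365 CPM from 1000 to 4000 CPM and at 208 and 235 CPM above that, so it was highest in the second class in both libraries. Nefm had the same shape, with 959.7 and 834 CPM in the second class and 549 and 457 CPM in the last. Ina was lowest in the first class, at 76.1 and 56.7 CPM, and highest in the last, at 168 and 122 CPM. Its means over the CCI libraries were 66.4, 85.3, 108 and 145 CPM from the first class to the last. Prph varied least, from 3493 to 4493 CPM. The second class held 177 and 77 neurons, and its makeup by subtype was not held constant.

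**Figure D5:**
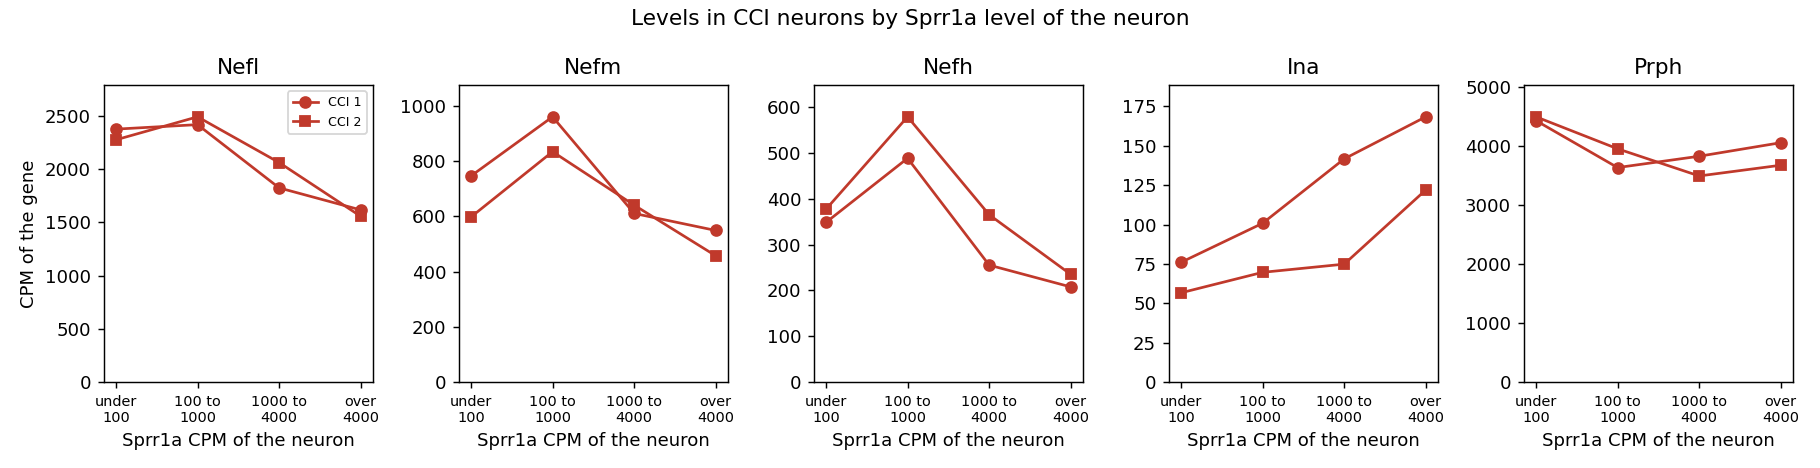
Level (CPM) of each gene in CCI neurons grouped by the Sprr1a level of the neuron, with 1 line per CCI library. Nefl, Nefm and Nefh are highest from 100 to 1000 CPM of Sprr1a and lowest above 4000 CPM, whereas Ina is highest above 4000 CPM.

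Of 34 genes for partners of these filaments (other intermediate filament proteins, linkers, kinases, chaperones, transport motors and RNA-binding proteins), 4 of 34 tested were higher in CCI neurons than in CON neurons and 0 were lower, with a median log2 fold change of 0.09 against -0.02 over all genes, of which 5.8% were called. They were Hspb1, the small heat shock protein of axonal filaments (1.68 ± 0.20, SE), the type III filament vimentin (Vim, 1.40 ± 0.18), the neuronal tubulin Tubb3 (0.91 ± 0.22) and lamin A/C (Lmna, 0.74 ± 0.17), the last of which was not called with the totals alone. In Sprr1a-high against other CCI neurons, 17 of 33 were higher and 7 lower, with a median of 0.25, and 52% of all genes were called. With the totals alone 9 were higher and 10 lower, with a median of 0.05. Among the largest were Hspb1 (1.73 ± 0.10), Tubb3 (0.89 ± 0.11), Vim (0.87 ± 0.08), Lmna (0.73 ± 0.08), and the microtubule protein tau (Mapt, -0.75 ± 0.08), the one of these 5 that was lower, and all 5 kept their call and direction with the totals alone.

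Within large-fibre-like neurons 3 of 31 partners were higher in the Sprr1a-high cells and 5 lower, a share near the 25.5% of all genes called in this comparison, and with the totals alone 2 were higher and 13 lower. Hspb1 (1.68 ± 0.22), Vim (1.38 ± 0.21) and the related chaperone Hspb8 (0.73 ± 0.21) were higher, although Hspb8 lost its call with the totals alone. The linker filament synemin (Synm, -0.83 ± 0.21) and the dynein subunits Dync1i1 (-0.86 ± 0.24) and Dync1h1 (-0.78 ± 0.22), of the motor that carries cargo back to the cell body, were lower beside Nefh and Nefm. All values of the partners are log2 fold changes ± SE from edgeR.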

How the data were processed

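The authors aligned 10x 3′ v3.1 reads to mm10 with Cell Ranger, per the labels with CASAVA 1.8 before it, and deposited whole-number UMI counts per gene and barcode for 4 libraries. Sample groups follow the labels. Barcodes with at least 500 genes and under 20% mitochondrial UMIs were kept, integrated and clustered in Seurat 5.3.0 (10 principal components, 2000 features, resolution 0.8), and neurons were clustered again. No map from the authors' clusters was used here, so names were rebuilt. The large-fibre-like class needed at least 6 of a panel of 7 markers, and any other subtype at least 3 of its markers. Clusters with no subtype were called injury-led at 8 or more injury markers. Sums of UMIs for each class in each library were compared with edgeR 4.0.16 (quasi-likelihood, TMM, filterByExpr) under R 4.3.3, with Benjamini-Hochberg adjustment over all genes, and a gene was called at an adjusted p under 0.05. DESeq2 1.42.0, other scalings and filters, thinning, other Sprr1a limits, gating and leaving out libraries were the alternatives. Where a library was left out of a Sprr1a comparison, the CON sums were added to give the spread. For the injury-led clusters these were the CON sums of all neurons. Log2 ratios were compared by exact permutation tests in scipy 1.17.1. The fits were tested on simulated data. Besides the 5 genes, 4 injury genes, up to 6 called partners a comparison and the 5 genes with the highest correlation to each gene were named by rule, and 1 partner so chosen is not reported here. The members and lists were chosen with earlier results of these data known. Depth was 52074235 to 135009606 UMIs per library.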

Additional observations from a re-analysis of the deposited data

Results flagged for a closer look

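The effect of CCI on Nefh in large-fibre-like neurons differed from that in the other named subtypes by -0.999 on the log2 scale (edgeR adjusted p = 0.0468), which singled it out as a difference between classes under 1 contrast. Nefh lay lower in both CCI libraries than in both CON libraries in the first class and higher in both in the second. With the satellite glia background subtracted, the second class had 255 and 237 CPM in CCI and 192 and 123 CPM in CON. PEP2-like neurons, rich in Nefh, numbered 90 and 53 in CCI, against 40 and 5 in CON. Mean Nefh was lower in CCI in PEP2-like, Trpm8-like and PEP1-like neurons. It was higher in CCI in NP1-like, NP2-like, NP3-like and, slightly, cLTMR-like neurons. The part of subtype shares in the level of the second class was not tested. The call rested on CON 2, the library with the lowest background and the lowest level in that class: without it the difference was -0.43 with an adjusted p of 0.871, and in DESeq2 the adjusted p was 0.0754.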

How the results depend on the processing

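No value changed direction with a call. In the comparison of Sprr1a-high with other CCI neurons, where 2 of the 5 genes were called, 1 was called without the library block, 1 at a Sprr1a limit of 500 CPM, 4 with low-UMI neuron barcodes added, 5 with the totals and no TMM factors, and 0 to 1 with 1 CCI library left out. Of the 3 genes called in large-fibre-like neurons and the 2 called in injury-led clusters, 0 were called in each with either CCI library left out, and DESeq2 called 1 in the injury-led clusters. In Trpm8-like neurons 1 gene was called with the totals alone and none otherwise. For the difference between large-fibre-like and other named subtypes, DESeq2 called 0 and leaving out 1 library gave 0 to 2. The log2 difference of Nefl per Prph was -0.35 in thinned neurons and -0.33 to -0.27 with 1 library left out. With cells gated on markers in place of clusters, 3 of the 5 genes kept their top subtype, while Ina was highest in large-fibre-like and Prph in NP2-like cells. The 0 calls between CCI and CON, over all neurons and in 4 subtypes, stayed at 0 in every alternative run. The replicate numbers deviated together (correlation 0.44 over 8880 genes), but 2 pairs do not show pairing, and with the replicate number as a block the calls between CCI and CON remained 0. Of the single-gene values under alternatives, 412 kept direction and side of the threshold, 20 lost and 13 gained a call, and 45 changed sign without any call. The causes were not tested, except that leaving out a library leaves 1 sum in a class. The low-UMI alternative was not run for levels by subtype, nor the Sprr1a comparison by subtype at 20 cells.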
